A study of Mus musculus with 2 samples.

Results

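The nuclear genes for mitochondrial ribosomal proteins were followed in mouse embryonic stem cells with and without a knockdown of the long noncoding RNA LincU. Members were all probes that are not array controls and whose gene name on the array starts with Mrpl or Mrps and a digit, with pseudogene names (-ps) left out. This gave 77 genes, read by 119 of the array's 56605 non-control probes. A gene was measured when at least 1 of its probes was well above background on both arrays, which held for all 77 members and for 21012 of the 36996 genes on the array.

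The cells were 46C, a mouse embryonic stem cell line, grown in 15% serum with leukaemia inhibitory factor on feeder cells that were taken away before harvest. Both groups are 46C cells carrying a short hairpin: shCtrl is the control hairpin, and shLincU the hairpin against LincU; the title of the control sample calls it WT instead. Each group was 1 Cy3 one-colour Agilent array, and both arrays lay on 1 slide, so there is no spread between replicates, no test and no p-value, and differences in culture or labelling cannot be told apart from the hairpin. No probe carries the name LincU, and its level was not analysed here, so the direction of every difference rests on the sample labels.

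Mitochondria carry their own ribosomes, which translate the few proteins encoded in mitochondrial DNA, all of them parts of the respiratory chain and ATP synthase. The ribosomal RNAs come from mitochondrial DNA, but every protein of these ribosomes is made from nuclear genes in the cytosol and imported. Some of the proteins descend from bacterial ribosomal proteins, and others are found only in mitochondrial ribosomes. Such housekeeping genes often have CpG-rich promoters, and binding sites for GABP (an ETS family factor), NRF1 and YY1 are known from promoters of nuclear genes for mitochondrial proteins.

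The promoters of 68 members were found in a RefSeq promoter table (GRCm38.p6), which covers 250 bases before to 50 after a gene's start; the first entry was used for the 3 members with several. Mrpl38, Mrps28, Mrpl15, Mrpl4, Mrpl13, Mrpl19, Mrps35, Mrps34 and Mrpl54 had no entry. Below, the 100 bases before the start are shown for examples that hold a motif match there, from both sides of 0. Matches to the ETS core CCGGAAG (or its reverse complement CTTCCGG) are in capitals. In Mrpl9 the capitals mark a match to the NRF1 motif. Mrpl35, Mrps7, Mrps2, Mrps17, Mrps10, Mrpl24 and Mrps25, all at least 1.2-fold different between the arrays, hold no ETS core in the 300 bases. Mrps26 (chr2:130563657-130563756, plus strand) and Mrpl43 (chr19:45006443-45006542, minus strand) were lower with shLincU on the scale described next. Mrps27 (chr13:99344686-99344785, plus strand), Mrps18a (chr17:46110904-46111003, plus strand) and Mrpl9 (chr3:94443236-94443335, plus strand) were higher on it, Mrps18a by only 1 of its 2 probes. The Mrpl9 probes gave -0.0094, 0.10 and 0.40, the last from a dim probe with processed signals of 74.6 and 65.9.
Mrps26: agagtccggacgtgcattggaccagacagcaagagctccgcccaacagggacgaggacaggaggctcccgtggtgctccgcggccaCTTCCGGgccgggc
Mrpl43: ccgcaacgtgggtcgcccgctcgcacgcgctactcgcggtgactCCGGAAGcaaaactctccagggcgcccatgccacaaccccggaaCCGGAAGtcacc
Mrps27: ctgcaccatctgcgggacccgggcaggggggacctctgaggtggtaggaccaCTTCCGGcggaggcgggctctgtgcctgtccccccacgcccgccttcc
Mrps18a: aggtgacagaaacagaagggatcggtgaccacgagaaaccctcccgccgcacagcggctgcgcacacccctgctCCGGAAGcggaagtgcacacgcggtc
Mrpl9: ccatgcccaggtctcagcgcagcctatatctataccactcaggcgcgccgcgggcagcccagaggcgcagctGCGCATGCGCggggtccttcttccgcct

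The mitochondrial ribosomal protein genes differed little between the arrays. A difference here is log2 of the shLincU signal minus log2 of the shCtrl signal, after the 75th percentile of each array was set to 0. The members' median difference was -0.018, with an SD over genes of 0.17, and their values ran from -0.52 for Mrpl35 to 0.34 for Mrps10. Of the 77 members 35 lay above 0 and 42 below, while 53.1% of all measured genes lay above 0. These directions hold on this scale only: scaled to the array's 7 E1A spike-in controls, all 77 members were lower, with a median of -0.93, and the median of all genes moved to -0.89.

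No member reached a 1.5-fold difference in either direction, whereas 4.78% of all measured genes were higher by that much or more and 4.84% lower. None was 2-fold different either, a size that 1.14% of all genes reached on the higher side and 1.53% on the lower. Among the 10506 measured genes at or above the median signal level, where 76 of the members lie, the 1.5-fold shares were 2.17% and 2.39%. They were 0% and 2.25% of the cytosolic ribosomal protein genes, and 0% and 1.01% of the nuclear-encoded respiratory chain genes. At the smaller size of 1.2-fold, 5 members were higher (19% of all genes) and 5 were lower (16.8% of all genes), which is 6.49% of members each way; the shares among the 10506 brighter genes were 13.8% and 12.5%. Mrpl35 showed the widest difference of all members, 1.44-fold lower, and Mrps10 the widest on the upper side, 1.27-fold higher.

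The members' differences were also closer together than those of genes at large. The SD of 0.17 among members compares with 0.40 over all measured genes. Of the members 74.0% lay within 0.2 of zero and all but Mrpl35 within 0.5, against 52.6% and 86.6% of all genes. Against the 10506 brighter genes the contrast was smaller: their SD was 0.29, and 61.4% of them lay within 0.2. The narrow spread was not particular to the members. Of the cytosolic ribosomal protein genes 73.0% lay within 0.2 (SD 0.17), and of the nuclear-encoded respiratory chain genes 78.8% (SD 0.21). The members' SD was below that of all genes on each of the 13 other ways of processing, with 0.16 to 0.21 for members and 0.29 to 0.44 for all genes. Among these, median centring and E1A scaling shift all genes alike and so could not change either SD.

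**Figure D1:**
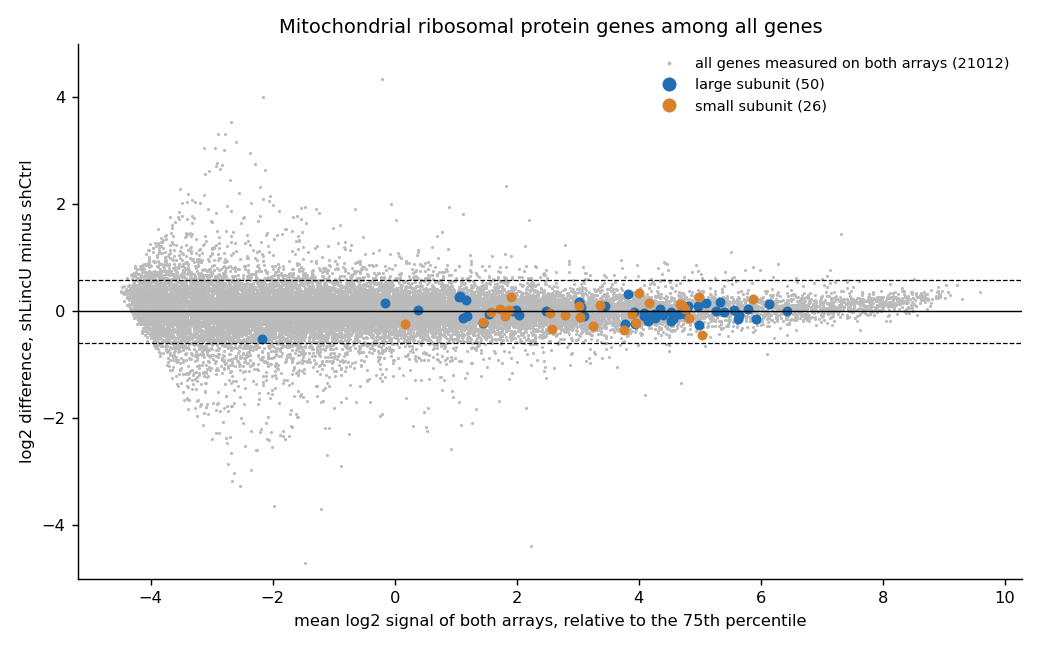
Log2 difference, shLincU minus shCtrl (vertical axis), against the mean log2 signal of both arrays (horizontal axis), both relative to each array's 75th percentile. Drawn are the members of the large and small subunits and all 21012 measured genes. Mrps36, in neither subunit, is not marked as a member. Dashed lines mark 1.5-fold. With E1A scaling all members lie below 0. The members fall between -0.52 and 0.34, with an SD of 0.17 against 0.40 for all genes.

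Levels, given as log2 relative to the 75th percentile of the array, were close to identical on both arrays. The members' median level was 3.94 in shCtrl, with a range of -1.92 to 6.43, and 3.92 in shLincU, with a range of -2.44 to 6.44. Across the 77 genes the levels correlated with a Pearson r of 0.995, a description of genes that share 2 arrays and their probes.

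The large subunit joins amino acids and releases the new protein through a tunnel, and 50 members encode its proteins, counting Mrps30 and Mrps18a, whose products sit in the large subunit in spite of their names. Their median difference was -0.021 (SD 0.15), with 22 genes above 0 and 28 below. The small subunit holds the messenger RNA and reads its codons. Its 26 members had a median of -0.012 and a wider SD of 0.21, with 12 above 0 and 14 below, and 57.7% of them lay within 0.2 against 82.0% of the large subunit genes. Small subunit genes supplied 3 of the 5 members at least 1.2-fold higher and 4 of the 5 at least 1.2-fold lower, the latter including Mrps7 with its disagreeing probes. That is 11.5% and 15.4% of the small subunit genes, and 4% and 2% of the large subunit genes. Over all genes the shares were 19% and 16.8%, and among the 10506 brighter genes 13.8% and 12.5%. The small subunit's share on the lower side thus lay between those of the brighter genes and of all genes. It rests on 4 genes with Mrps7 among them, so no difference from either is read from it. With E1A scaling both subunit medians were -0.93.

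The members can also be split by whether their protein is classed as having a bacterial homologue. The 46 members classed so had a median of -0.033, and the 30 classed as mitochondrion-specific -0.0059. The latter class includes Mrps18a (0.26) and Mrps18b (0.12), although both are paralogues of bacterial protein S18 and so have a bacterial relative. Within the large subunit the medians were -0.021 for the 30 classed with a homologue and -0.029 for the other 20, Mrps18a among them. Within the small subunit they were -0.054 for 16 genes and 0.062 for 10, with Mrps18b among the 10. Mrps36, the remaining member, differed by 0.012; its product is now known as a part of the 2-oxoglutarate dehydrogenase complex and not of the ribosome.

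**Figure D2:**
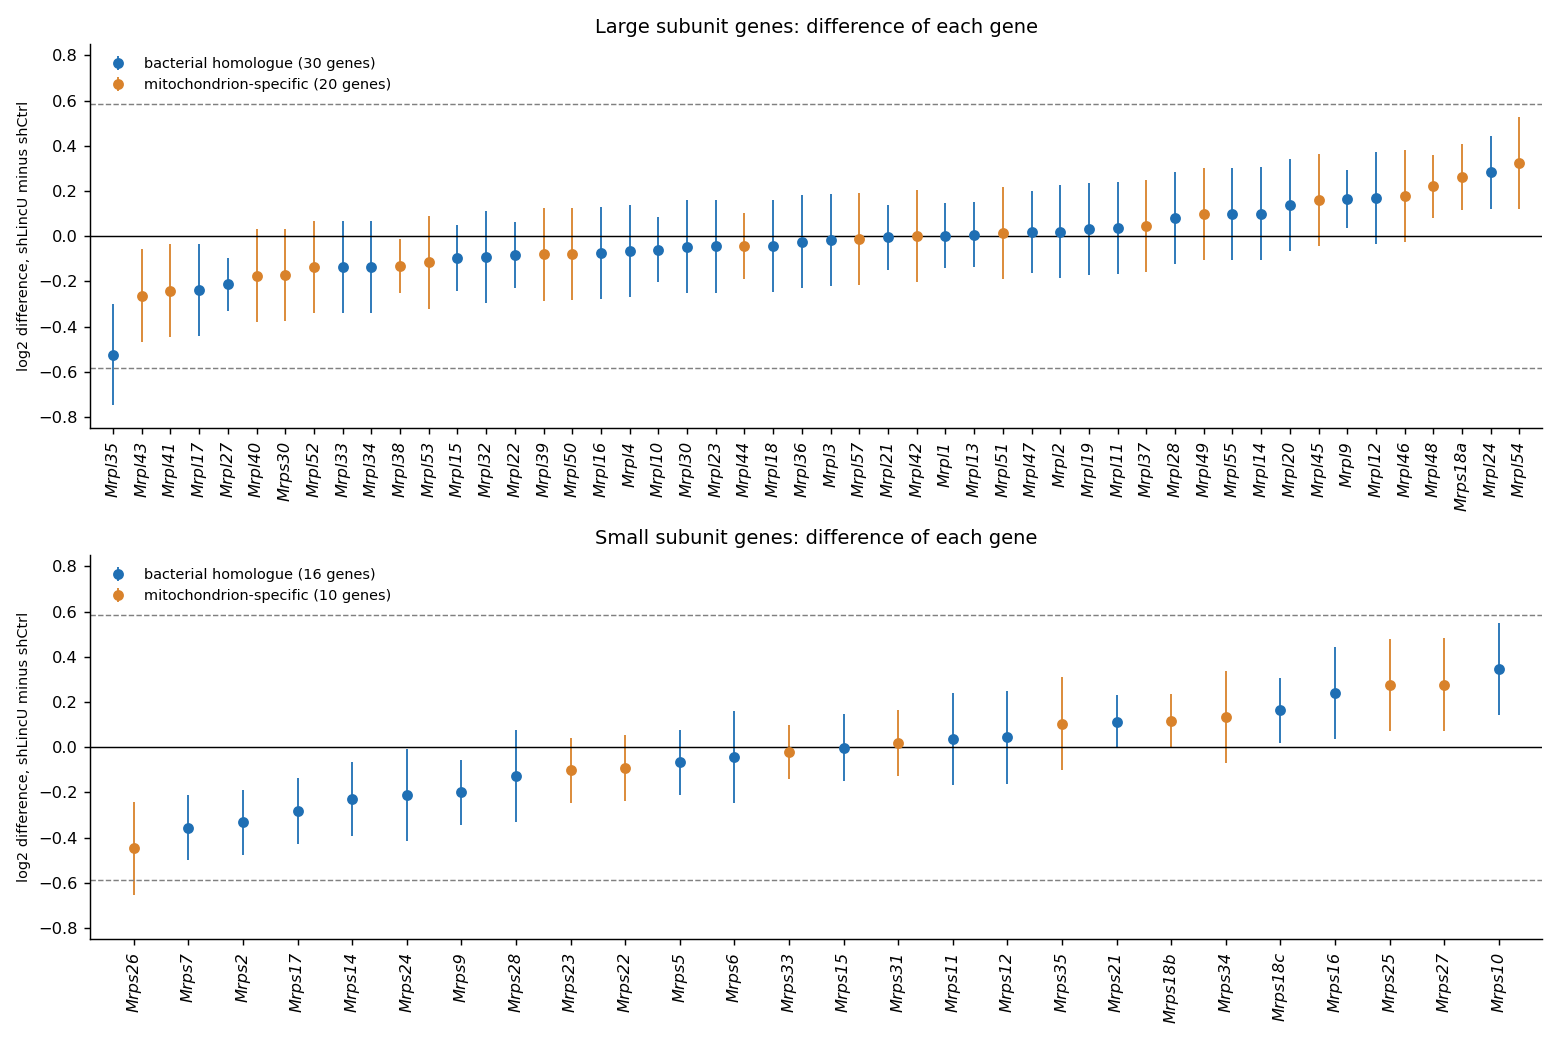
Log2 difference, shLincU minus shCtrl, of each member in the large and the small subunit, relative to each array's 75th percentile. Bars are 1 scanner error, and dashed lines mark 1.5-fold. Colours separate proteins classed with a bacterial homologue from those classed as mitochondrion-specific, where the S18 paralogues Mrps18a and Mrps18b are drawn. Mrps36, in neither subunit, is not drawn. Genes of both subunits lie on both sides of 0, from -0.52 for Mrpl35 to 0.34 for Mrps10, and with E1A scaling all lie below 0.

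Among the lower members, Mrpl35, a large subunit protein with a bacterial homologue, had a level of -1.92 in shCtrl and -2.44 in shLincU, a difference of -0.52. It was the only member below the median level of all genes, and with normexp background correction its difference shrank to -0.17. Mrps26, a mitochondrion-specific small subunit protein, had levels of 5.27 and 4.82, a difference of -0.45. For Mrps26 none of the alternatives that measured it, E1A scaling apart, moved the value beyond its error, and its difference was -0.49 in the deposited value table and -0.50 with normexp. Several of the other alternatives could not move it, since it is read by 1 probe.

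Of the small subunit proteins shared with bacteria, Mrps7 had levels of 3.94 in shCtrl and 3.58 in shLincU, a difference of -0.36, but its 2 probes disagree (below). Mrps2 had levels of 2.75 and 2.42, a difference of -0.33 that both of its probes showed, at -0.37 and -0.29. Mrps17 had levels of 3.40 and 3.12, and both of its probes were lower, at -0.31 and -0.25. These genes make up the members at least 1.2-fold lower, together with Mrpl35 and Mrps26.

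The next in order lie just short of that size. They are Mrpl43 (-0.26), Mrpl41 (-0.24) and Mrpl17 (-0.24), Mrps14 (-0.23) and Mrpl27 (-0.21), of which Mrpl27 lies near the catalytic centre of the ribosome. All 4 measured probes of Mrpl27 were lower, from -0.41 to -0.093. The -0.41 came from a dim probe, with processed signals of 57.7 in shCtrl and 29.2 in shLincU. The brighter probes ran from -0.24 to -0.093.

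Among the higher members, Mrps10, a small subunit protein with a bacterial homologue, had levels of 3.84 in shCtrl and 4.18 in shLincU, a difference of 0.34. Mrpl54, a mitochondrion-specific large subunit protein, had levels of 3.66 and 3.98, a difference of 0.32. Mrpl24, which lies by the exit of the protein tunnel, had levels of 0.93 and 1.22, a difference of 0.28. Those values average a bright and a dim probe. The bright probe, with processed signals of 20200 in shCtrl and 15910 in shLincU, differed by 0.23, short of 1.2-fold. The dim probe, with 70.8 and 60, differed by 0.34. Each of these 3 genes was lower in shLincU when the arrays were scaled to the E1A controls, as was every other member.

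Mrps27, a small subunit protein with pentatricopeptide repeats, had levels of 1.77 and 2.05, a difference of 0.28. Mrps25 had levels of 4.85 and 5.12, a difference of 0.27, and completes the members at least 1.2-fold higher. Below that size followed Mrps18a (0.26), Mrps16 (0.24), Mrpl48 (0.22), Mrpl46 (0.18) and Mrpl12 (0.17). The members closest to 0 were Mrpl42 with 0.0022, Mrpl1 with 0.0026 and Mrps15 with -0.0026.

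Mammals have 3 paralogues of bacterial ribosomal protein S18. Mrps18c, the small subunit protein nearest to the bacterial one in its place, had levels of 4.09 in shCtrl and 4.25 in shLincU, a difference of 0.16. Mrps18b, also in the small subunit, had levels of 4.65 and 4.77, a difference of 0.12. Mrps18a in the large subunit had levels of 0.93 and 1.19, a difference of 0.26. All 3 were above 0, although Mrps18a rests on probes that disagree and all 3 were below 0 with E1A scaling. The probes of Mrps18b ran from 0.098 to 0.15 and those of Mrps18c from 0.14 to 0.18.

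The values are given next by the place of the protein in the ribosome, for examples chosen after their values were seen, most of which lie within the median scanner error of 0.20. In the stalk, which calls in the translation factors, Mrpl12 differed by 0.17, its anchor Mrpl10 by -0.060 and the stalk base protein Mrpl11 by 0.037. Around the exit tunnel Mrpl22 differed by -0.083, Mrpl23 by -0.045 and Mrpl24 by 0.28, and Mrpl45, which ties the ribosome to the inner membrane, by 0.16. In the central protuberance Mrpl46 and Mrpl48 differed by 0.18 and 0.22, but Mrpl40 and Mrpl38 by -0.17 and -0.13. Near the catalytic centre Mrpl2 differed by 0.021, Mrpl3 by -0.018 and Mrpl16 by -0.075, and Mrps12, at the decoding site of the small subunit, by 0.043.

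Without replicate arrays, the only measures of error are those within an array. The scanner software's own error, mostly a preset multiplicative error of 0.1, gave a median error of 0.20 in the log2 difference of members with 1 probe. The differences of 24 members exceeded 1 such error and those of 4 exceeded 1.96 errors: Mrpl35, Mrps26, Mrps7 and Mrps2. That is 5.20% of members, against 20.9% of all measured genes. Probes spotted 10 times or more varied by an SD of only 0.041 in their difference, but this covers the spotting and not the culture, the RNA or the labelling.

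Separate probes of a gene gave a second measure. The 28 members with several measured probes had a median SD of 0.11 between their probes' differences, against 0.18 over the 7148 such genes on the array. In 13 of the 28 all probes lay on the same side of 0. The other 49 members rest on 1 measured probe each. Of the 119 member probes, 113 were well above background on both arrays; 1 probe each of Mrpl52, Mrps18b, Mrpl47, Mrpl23 and Mrps5 was below on both and 1 probe of Mrpl48 on shLincU only, and each of these genes was read by its other probes. No member spot was saturated or marked as an outlier.

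In Mrps7, Mrps14 and Mrps18a the probes differed by more than 0.5, so that the gene's value depends on which probe is read. The first 30 bases of each 60-base probe are printed to show that the probes read separate stretches, with positions on mm9, the array's own build, all on the plus strand. The first probe of Mrps7 lies at chr11:115468169-115468228 and the second at chr11:115468609-115468668. Those of Mrps14 lie at chr1:162129889-162129948 and chr1:162125616-162125675, and those of Mrps18a at chr17:46265584-46265643 and chr17:46264387-46264446.
Mrps7 first probe: tggccatgaagtggatgatcacagagtgcc
Mrps7 second probe: aataaatgttgagctcctgctgtcctgttg
Mrps14 first probe: attgaattgtctttcaactttaaagcatag
Mrps14 second probe: ttcaggtgtgatccgtcatgtgaaagctgc
Mrps18a first probe: aagatgatgcattagtgggagcaggacttc
Mrps18a second probe: acttatgctgggctaacctgttgtcttaaa

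The first Mrps7 probe gave a processed signal of 4924 units in shCtrl and 3156 in shLincU, a scaled difference of -0.067, and the second 18710 and 8040 units, a difference of -0.64. The first Mrps14 probe gave 5967 and 4123 units, a difference of 0.041, and the second 96.7 and 45.9 units, a difference of -0.50. The first Mrps18a probe gave 6727 and 4482 units, a difference of -0.011, and the second 211 and 206 units, a difference of 0.54. Signals are before scaling, and the 75th percentile itself was 626 units in shCtrl and 420 in shLincU. In each of the 3 genes 1 probe stayed near 0 and the other stood apart. Read by the brightest probe alone, Mrps7 differed by -0.64, Mrps14 by 0.041 and Mrps18a by -0.011.

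**Figure D3:**
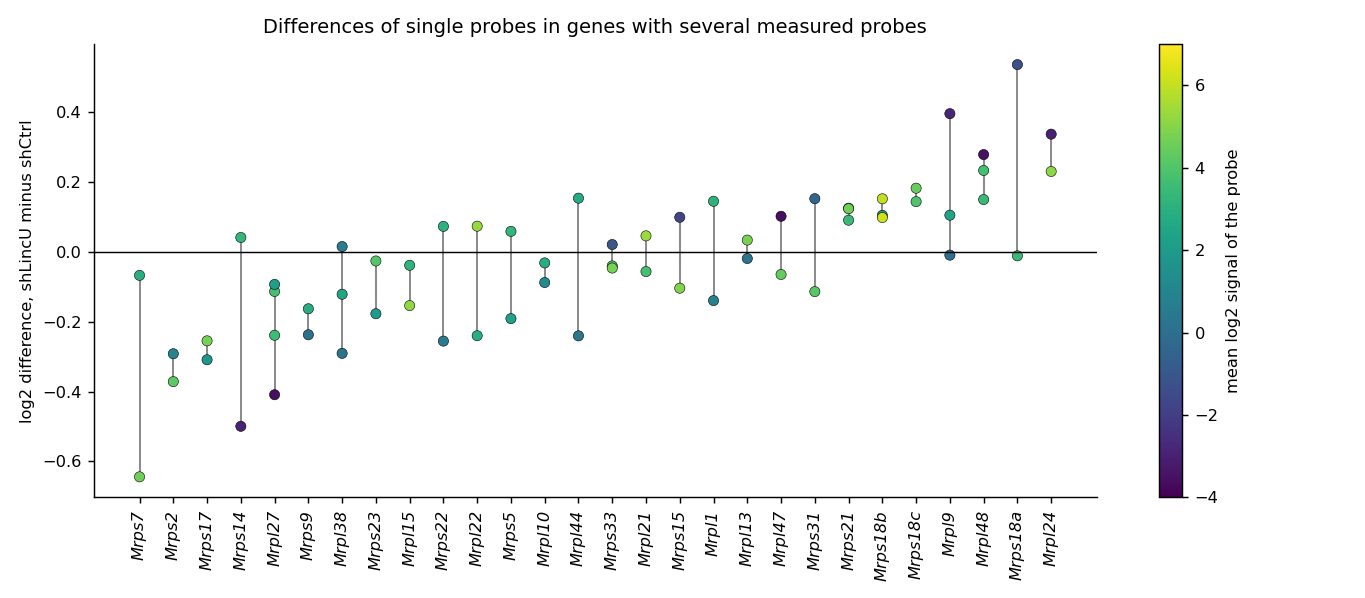
Log2 difference, shLincU minus shCtrl, of each measured probe (points) of the members with several measured probes, relative to each array's 75th percentile, coloured by the probe's mean log2 signal (with E1A scaling every gene lies below 0). In Mrps7, Mrps14 and Mrps18a the probes lie more than 0.5 apart, and the median gap between probes of a member is 0.16.

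Some sequence motifs, which played no part in choosing the members, were more frequent in their promoters than in those of measured genes. The ETS core CCGGAAG, searched on both strands over the 300 bases, was found in 24 of 68 member promoters (35.3%), in 16.1% of the 12393 promoters of measured genes and in 8.86% of all 32851 promoters. The YY1 motif AAGATGGC was found in 12 members (17.6%), against 4.25% of measured genes and 2.75% of all promoters. The NRF1 motif, the letters in capitals in the Mrpl9 promoter above, was found in 3 members (4.41%), against 1.78% and 0.971%. An ETS and a YY1 match can share up to 3 letters at their ends, and a match is a string in the window, not a measured site.

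Other promoter elements were searched in the same way. The E-box CACGTG was found in 7.35% of members against 9.71% of measured genes, CCAAT in 39.7% against 39%, and TATAAA in 5.88% against 8.47%. The median GC content of the members' promoters was 58.2% with 21 CpG pairs, against 60% and 19 pairs in measured genes and 52.7% and 7 pairs in all promoters. Genes for the nuclear-encoded respiratory chain shared the ETS core (28%) and the YY1 motif (14.6%), and those for cytosolic ribosomal proteins the ETS core (36.8%) with fewer YY1 matches (7.35%).

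Members with and without each motif had overlapping ranges of differences. The 24 members with the ETS core had a median difference of -0.032 and ran from -0.45 (Mrps26) to 0.28 (Mrps27), both of which are printed above with their matches. The 44 without it had a median of -0.00020. With the YY1 motif the median was 0.019 and without it -0.032, and with the CCAAT motif -0.0026 against -0.042. The other motifs were in few members: the 3 with the NRF1 motif had a median of -0.081 against -0.018 without it, the 5 with the E-box 0.046 against -0.042, and the 4 with TATAAA -0.14 against -0.016. With E1A scaling every one of these members was lower.

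**Figure D4:**
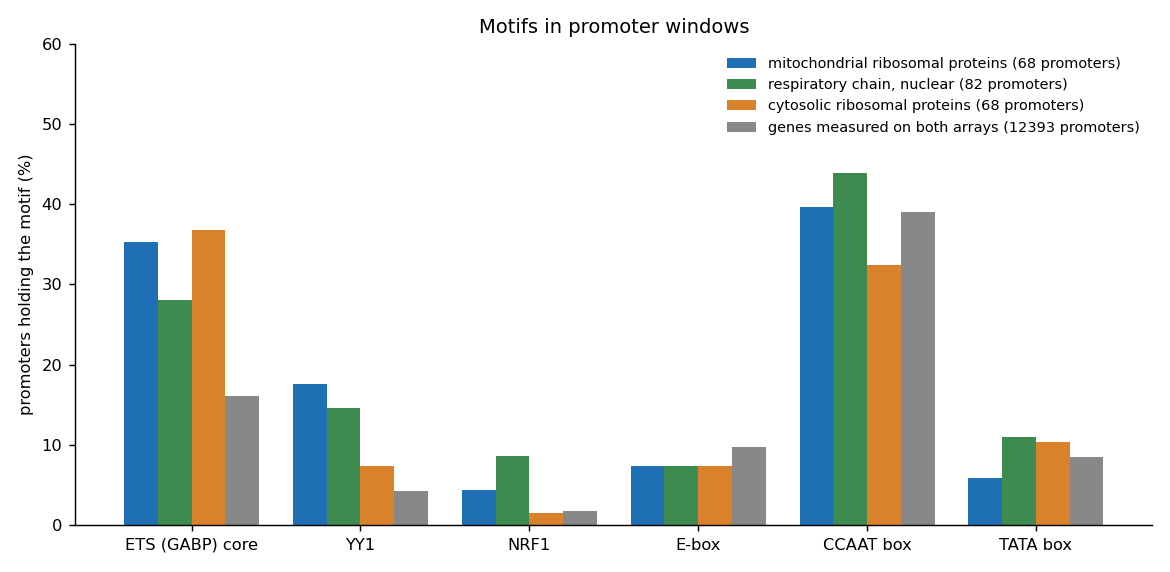
Percent of promoters (250 bases before to 50 after the start) that hold each motif, for members, nuclear respiratory chain genes, cytosolic ribosomal protein genes and measured genes. The ETS core is found in 35.3% of member promoters and 16.1% of those of measured genes, and the YY1 motif in 17.6% and 4.25%.

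Some members start back to back with another gene. Of the 68 with a promoter entry, 26 had a neighbour on the opposite strand whose start lay within 1000 bases, which is 38.2%. By the same count such a neighbour was found for 16.7% of the 12393 measured genes with an entry, 18.9% of the brighter ones and 11.4% of all 27025 genes with an entry. Of the members' neighbours 25 were measured. The neighbours' differences ran from -0.32 to 0.36 with a median of 0.030, and none reached 1.5-fold. In 17 of the 25 pairs both genes lay on the same side of 0, with a Pearson r of 0.22 over the pairs, given as a description since all come from the same 2 arrays. The same-side share over other such pairs of measured genes was not counted, so this count has no background to be read against.

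Individual pairs went both ways. The unmeasured neighbour is 4930473A02Rik, a noncoding RNA gene that starts 8 bases from Mrps26. Mrps11 and Mrpl46, whose starts lie 42 bases apart and which are both members, so that they were counted from either side, differed by 0.036 and 0.18. Mrps7 and Gga3, a sorting adaptor gene 224 bases away, differed by -0.36 and -0.29. Mrpl43 and Twnk, the gene of the mitochondrial DNA helicase 116 bases away, differed by -0.26 and 0.33, and Mrpl40 and Hira, a histone chaperone gene 113 bases away, by -0.17 and 0.35. Mrps12 and Sars2, the mitochondrial seryl-tRNA synthetase gene 147 bases away, differed by 0.043 and -0.14.

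By the array's mm9 positions the members lie on 17 chromosomes, with most on chromosome 11. The 10 members there had a median of -0.092, against -0.034 for all measured genes of that chromosome. On chromosome 17, 7 of 8 members lay above 0, with a median of 0.11 against 0.0026 for all its genes. On chromosome 2 all 4 members lay below 0 (median -0.29 against 0.019), and on chromosome 1 all 5 (median -0.096 against 0.0062). These chromosomes were picked out after their values were seen, and with E1A scaling every member on them was lower.

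The ribosome also has proteins whose genes carry other names, and 6 of them were measured. Mrpl58 is counted here and not among the members because the array gives it an older name, which the RefSeq table updates. Their median difference was 0.13, with 5 above 0 and 1 below. Gadd45gip1 was at 0.36, Ptcd3, which handles the messenger RNA, at 0.15, Mrpl58, a peptidyl-tRNA hydrolase built into the large subunit, at 0.15, Dap3, a GTP-binding small subunit protein, at 0.12, Aurkaip1 at 0.11 and Chchd1 at -0.29. None of them reached 1.5-fold.

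The rest of the mitochondrial translation pathway had medians near 0. Among 15 measured translation factor genes 9 were above 0 and 6 below, with a median of 0.0068, from the release factor gene Mtrf1l at -0.33 and the elongation factor gene Gfm1 at -0.26 to Gfm2 at 0.18 and Taco1, an activator of Cox1 translation, at 0.31. Among 20 genes for mitochondrial tRNA charging 13 were above 0 and 7 below, with a median of 0.044, and the widest were Nars2 at -0.45, Vars2 at 0.33, Mars2 at -0.32 and Ears2 at -0.28. Of 26 ribosome assembly genes 14 were above 0 and 12 below, with a median of 0.016, and the widest were Mterf3 at -0.36, the ribosomal RNA chaperone gene Eral1 at 0.36, Rpusd3 at 0.33 and Mterf4 at -0.25.

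Genes for mitochondrial DNA upkeep, transcription and RNA processing lay mostly below 0, with 4 of 16 above it and a median of -0.074. Trmt10c, a subunit of mitochondrial RNase P, was at -0.41, Tefm, a transcription elongation factor, at -0.38, Twnk at 0.33 and Hsd17b10, another RNase P subunit, at 0.24. Regulators of mitochondrial biogenesis had a median of 0.0048 over 11 of 12 genes, from Ppargc1b at -0.31 and Esrra at -0.21 to Gabpb1, a GABP subunit, at 0.27. Ppargc1a was well above background on neither array. No measured gene of these pathway groups reached 1.5-fold, and with E1A scaling the medians of all of them were below 0.

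Against the ribosomes of the cytosol the members stood slightly lower on the main scale, and this gap depended on the processing. The 89 cytosolic ribosomal protein genes, taken by name and so including Rps19bp1, which encodes no ribosomal protein, had a median of 0.11 (SD 0.17). Of these 74 were above 0 and 15 below, and the median is 0.13 above the members' median. The gap was 0.12 with normexp and 0.16 with the brightest probe, but 0.064 with cyclic loess, 0.013 with quantile normalization and -0.012 in the deposited value table. Rpl3l (-0.72) and Rpl39l (-0.62) were the cytosolic ribosomal genes at least 1.5-fold lower.

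The nuclear-encoded respiratory chain genes lay with the members. They were taken by name, so assembly factor genes such as Ndufaf1 and Cox10 are among them. Over 99 measured genes their median was -0.014 (SD 0.21), with 44 above 0 and 55 below, and only Ndufa4l2 passed 1.5-fold, at -1.28. The 11 measured mitochondrial genes, the templates of the mitochondrial ribosome, had a median of 0.18, from -0.17 to 0.37 apart from ND6 at 1.82. With E1A scaling the medians of the members, the cytosolic ribosomal and the nuclear respiratory chain genes were all below 0.

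**Figure D5:**
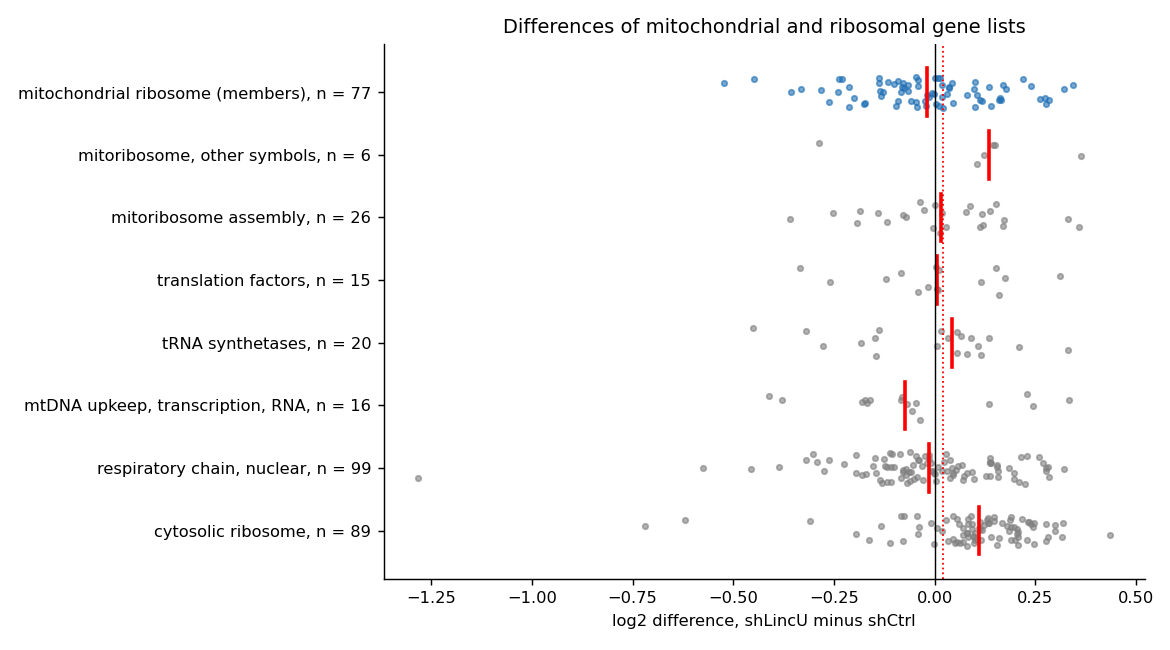
Log2 difference, shLincU minus shCtrl, of the genes in each group (points) with the group's median (red bar), relative to each array's 75th percentile; the dotted line is the median of all measured genes, 0.020. Group medians lie between -0.074 and 0.13 (all below 0 with E1A scaling), and the cytosolic ribosomal group at 0.11 comes level with the members in the quantile-normalized and deposited values.

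Of all probes, 60.9% were well above background in shCtrl and 57.9% in shLincU. All 10 stem cell markers were measured, with levels of -0.41 to 9.19 in shCtrl and -0.14 to 9.42 in shLincU, and log2 of their summed level was 9.58 and 9.77. Of 18 fibroblast markers 17 were measured, with levels of -2.84 to 5.51 and -3.69 to 5.20 and a log2 summed level of 6.85 and 6.81; Lum, the other one, was well above background in shLincU only. That sum is weighted to the brightest of them, Sparc, Vim and Tagln. The fibroblast markers' differences had a median of -0.33, from -2.41 (Dcn) to 0.88 (Tagln). Of the 17, 7 were at least 1.5-fold lower and 3 higher, against 4.84% and 4.78% of all genes. At 2-fold, 5 were lower and 0 higher, against 1.53% and 1.14%. The part of these markers in the members' values was not tested. In such bulk RNA fewer cells of a type and less RNA per cell cannot be told apart.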

How the data were processed

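Cy3-labelled RNA of each sample went on a one-colour array, per the labels. The authors' scanner files give the intensity of each spot, corrected for background, and the submitters' processing notes name Agilent Feature Extraction 10.7.1.1. Other deposited columns are flags for spots above background, saturated or outlying. The deposited value table holds log2 values, with a median of 5.65 in both columns; its slope on the scanner values was 1.00 over 56572 probes, and its normalization and centring are not given in the sources used here.

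Here the value was log2 processed intensity minus the array's 75th percentile over non-control probes. Outlier spots (98 and 138) were left out, spots of a probe averaged, and a gene's probes that were well above background on both arrays were averaged. Probes were named through a RefSeq table of GRCm38, used for names only: 33795 by accession, 9444 by symbol, 489 by synonym, and 12758 kept the array's name.

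With 1 array per group nothing was tested; genes were counted at 1.2-, 1.5- and 2-fold. The members and gene lists were chosen with earlier results of these data known. Named were the 10 highest and 10 lowest members, members with a 1.5-fold difference or unmeasured, members whose probes differed by more than 0.5, the Mrps18 paralogues, the 3 nearest 0, and up to 4 genes per other list; further genes were named for their role, their neighbours or their probes after their values were seen. The 13 alternatives covered background correction, scaling, filters, probe choice and array position. Calculations used Python 3.11.15, R 4.3.3 and limma 3.58.1, and the scripts were tested on simulated data.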

Additional observations from a re-analysis of the deposited data

How the results depend on the processing

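No paired analysis was possible because there is only 1 array of each kind, which also means that leaving one out gives no value. Scaling to the E1A controls shifted all genes alike, and the median of all genes became -0.89. The members' median became -0.93, and the large and small subunit medians -0.93 and -0.93. Members above 0 fell from 35 to 0, and those at least 1.2-fold higher from 5 to 0. Those at least 1.2-fold lower rose from 5 to 77 and those at least 1.5-fold lower from 0 to 76. These counts follow from the common shift, since the members' median minus that of all genes stayed at -0.038. With median centring 2 members were at least 1.2-fold higher and 9 lower. With normexp these counts were 3 and 8, the large subunit median was -0.076, and the members' median minus that of all genes was -0.14 in place of -0.038. That difference was -0.28 with no background filter, which adds genes at unequal floors. With cyclic loess 3 members were at least 1.2-fold higher. The brightest probe alone gave 1 member at least 1.5-fold lower and a small subunit median of 0.039. The array's upper rows measured 51 members, with 2 at least 1.2-fold lower, 1 at least 1.5-fold lower and a small subunit median of -0.066. Its lower rows measured 41 members, with 19 above 0 and 3 at least 1.2-fold higher. For these alternatives the same shares over all genes are not given, so the counts have no background to be read against. For a gene with 1 probe on the array, settings of probe choice, filter and array position return the same or nearly the same value. Median centring shifts all genes alike by a small amount. Such settings could hardly move those genes, which limits the next count. Apart from E1A scaling, 21 of 25 named members stayed within their error under each alternative that measured them; the other 4 were Mrpl35 (-0.17 with normexp), Mrps14 (0.041 with the brightest probe, -0.014 with normexp), Mrps18a (-0.011 with the brightest probe or upper rows, 0.54 with lower rows) and Mrps7 (-0.64 with the brightest probe or upper rows, -0.067 with lower rows).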
